A study of Canis lupus familiaris with 36 samples.

Results

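Glycolysis, the making and use of glycogen, gluconeogenesis and the entry of sugar into the pentose phosphate branch are described here in canine lymphoma through 39 genes. The genes were listed by symbol, and each was read through the probe set annotated to that symbol alone, the one with the highest mean over all arrays where there were several. Of the 39 genes, 37 had such a probe set, out of 15115 genes on the array. LDHB shared its probe sets with other genes, TALDO1 was not found in the annotation used here, and both were left out. Of the 37, 28 had several probe sets, and 32 reached a log2 intensity of 4 in at least 4 dogs and entered the tests. The other 5 lay below that minimum in every dog, namely the hexokinases HK2 and HK3, the regulatory enzyme PFKFB4, the lactate exporter SLC16A3 and the muscle-type glycogen synthase GYS1.

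Glycolysis splits glucose into pyruvate. Hexokinase traps the sugar, phosphofructokinase commits it, and the lower enzymes recover energy before pyruvate is reduced to lactate or enters the mitochondrion. Fructose-1,6-bisphosphatase, encoded by FBP1, runs the phosphofructokinase step backwards and is best known from gluconeogenesis in liver and kidney, while glycogen phosphorylase, whose liver form is PYGL, frees glucose units from glycogen. Several steps are served by isoforms from separate genes, and lymphoid tissue makes little glucose of its own.

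Lymphoma tissue from 35 dogs was measured on 36 Affymetrix canine arrays after mechanical dispersal and filtering of primary tumours, and no treatment is given in the labels. The study set common histological types of canine lymphoma side by side. The 2 arrays of a repeated case were averaged, and their correlation over genes was 0.994. Values are the log2 of intensities that the authors had normalized with GCRMA, so that a difference of 1 is a doubling, and levels are never compared between genes because each probe set has its own brightness.

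The B phenotype held 17 dogs. Diffuse large B-cell lymphoma (DLBCL, all high grade) was represented by 10 dogs aged 4 to 14 at diagnosis, 6 of them Golden Retrievers. Marginal zone lymphoma (MZL, all low grade) was represented by 5 dogs aged 4 to 10, 4 of them Golden Retrievers. The label BL, which is not spelled out, covered 2 high-grade dogs aged 2 and 5, 1 of them a Golden Retriever, and these are described without a test of their own. The T phenotype also held 17 dogs. The label LBT, likewise not spelled out, covered 4 high-grade dogs aged 3 to 10, 3 of them Golden Retrievers. Peripheral T-cell lymphoma (PTCL) was represented by 4 dogs aged 6 to 14, of which 1 was a Golden Retriever, 3 were of high and 1 (replicate 4) of intermediate grade. T-zone lymphoma (TZL, all low grade) was represented by 9 dogs aged 7 to 11, 8 of them Golden Retrievers. The last dog, labelled NBNT, was a Golden Retriever aged 8 and entered no test. The labels give no unit for age, grade was the same for all dogs of a disease state except for PTCL replicate 4, and an effect of grade cannot be told apart from one of disease state. Breed, age and sex moved with disease state too. Male and female dogs numbered 4 and 6 in DLBCL, 1 and 4 in MZL and 1 and 1 in BL. In the T states they numbered 1 and 3 in LBT, 2 and 2 in PTCL and 6 and 3 in TZL, and the NBNT dog was female. The labels give each dog as its own case, so the p-values measure the spread between dogs, and the number of arrays limits their precision.

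The arrays were checked before the results. The summed intensity of the 10 B-cell markers of 12 listed that had a probe set ran from 8433 to 13993 in B dogs and from 55.9 to 6908 in T dogs, without overlap. The sum of the 12 T-cell markers of 14 listed ran from 1823 to 8279 in B dogs and from 8075 to 36990 in T dogs, and the overlap was due to PTCL replicate 4 alone, which had 8075. The 3' control probe set of actin read 14.03 to 14.45 (log2) on 6 arrays and 10.79 to 12.45 on the remaining 30. The 6 were TZL replicates 1, 2 and 7, DLBCL replicates 4 and 9 and PTCL replicate 3, and they are called the arrays that stood apart. A probe set annotated to EIF2S3, a gene of the sex chromosomes, picked after its values were seen, lay at 3.93 to 11.2 in 14 of 15 male dogs and at 1.57 to 2.09 in 18 of 19 female dogs. It opposed the labelled sex in PTCL replicate 3 at 1.63 and in MZL replicate 2 at 10.47, and calls within the T lineage or in MZL against TZL that were lost without the one concerned are given with that value.

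FBP1 was the member with the sharpest pattern. Its log2 intensity was 7.84, 7.63, 9.14 and 6.12 in the LBT dogs and 6.11, 5.61, 9.31 and 7.98 in the PTCL dogs. In TZL it ran from 2.36 to 2.79 with a median of 2.52, in DLBCL from 2.12 to 3.09 with a median of 2.56, and in MZL from 2.25 to 2.72 with a median of 2.45. The BL dogs had 2.48 and 2.40, and the NBNT dog 2.64. All 8 LBT and PTCL dogs were thus above the minimum of 4 and every other dog was below it, with no overlap, and FBP1 entered the tests only through those 8 dogs. A gap of this kind between these 8 dogs and the other 26 tested was found for 0.187% of the 7502 genes tested, and one between them and TZL alone for 4.49%.

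**Figure D1:**
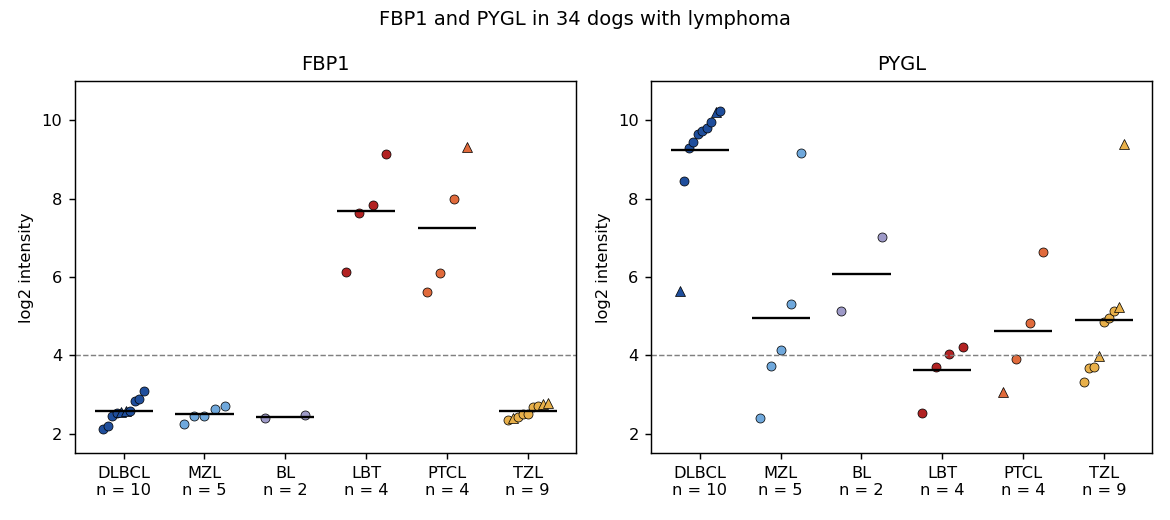
Log2 intensity of FBP1 (left) and PYGL (right) in each of 34 dogs by disease state; each point is a dog, triangles mark the arrays with the high actin control, bars are group means and the dashed line is the minimum of 4. FBP1 lies between 5.61 and 9.31 in LBT and PTCL and at 3.09 or below elsewhere, and PYGL lies at 8.44 or above in 9 of the 10 DLBCL dogs but also in 1 MZL and 1 TZL dog.

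A gene that reached the minimum in these 8 dogs only had to differ between them and the rest, so the tests of FBP1 that follow give the size and spread of the difference and are not counted as support for it. The T-lineage grade step in FBP1, PTCL against TZL, was 4.68 on the log2 scale (SE 0.42, limma adjusted p = 8.98e-09, or 2.53e-08 over all genes with no filter). Because every TZL dog lay below the minimum, the fold is a bound, at least 9.54-fold higher in PTCL. LBT exceeded TZL by 5.11 (SE 0.42, adjusted p = 2.96e-10), at least 12.8-fold. The B-lineage grade step, DLBCL against MZL, was 0.08 (SE 0.38, 95% interval -0.70 to 0.87, adjusted p = 0.963), with every dog of both groups below the minimum, so that only a change among dim values could have been seen. The grade steps of the lineages differed by 4.60 in FBP1 (SE 0.57, adjusted p = 1.22e-05), where 1.96% of all genes were called (1.21% higher and 0.746% lower). Over whole phenotypes FBP1 was lower in B than in T, with a difference of -2.33 (adjusted p = 0.00289), or at least 1.83-fold. LBT and PTCL differed by 0.43 (95% interval -0.58 to 1.44, adjusted p = 0.796), and their dogs overlapped. PTCL replicate 3 had the highest value, belongs to the set of arrays that stood apart and opposed its labelled sex, and without it the T step in FBP1 was 4.00 (adjusted p = 5.69e-08). Without all 6 arrays of that set it was 4.04 (adjusted p = 3.60e-06). In Golden Retrievers alone, with 1 PTCL dog, it was 3.02 (adjusted p = 0.00251), and the B against T difference, -1.60, was no longer called (adjusted p = 0.0645).

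The 3 probe sets of FBP1 gave the same separation. The lowest LBT or PTCL dog had 5.61, 5.17 and 7.37 on them, and the highest dog of any other state 3.09, 2.74 and 2.80. FBP1 is also known from monocytes and macrophages, and the summed intensity of 21 macrophage and monocyte markers was 3967 to 9231 in LBT, 11445 to 19170 in PTCL and 3281 to 19149 in TZL. Of those 21 markers, 11 were below the minimum in every LBT dog, 5 in every PTCL dog and 6 in every TZL dog. Of the 14 tested, 3 rose and 0 fell in PTCL against TZL (21.4%, beside 7.58% of all genes that rose), namely CD14 by 2.37, CD68 by 1.98 and CTSB by 0.87. In LBT against TZL 1 rose and 2 fell (21.4%, beside 30.1% of all genes called), namely CD14 by 1.56, CTSS by -1.24 and MARCO by -1.41. MARCO was below the minimum in all 4 LBT dogs and in 5 of 9 TZL dogs, with a TZL mean of 3.83, so its difference is one among dim values. CD14, a receptor of monocytes, was at 4.26 to 5.77 in LBT and 4.00 to 6.35 in PTCL, at 2.33 to 4.46 in TZL with 7 of 9 dogs below the minimum, and below it in every DLBCL and MZL dog. The medians of the 14 were 0.88 in PTCL and -0.94 in LBT against TZL. The part of these cells in the FBP1 values was not tested. Genes of cell division moved with FBP1 within the T lineage: 20 of 21 tested rose in PTCL against TZL and 21 of 21 in LBT against TZL, at medians of 2.71 and 2.97, beside 7.58% and 17.8% of all genes that rose. Their summed intensity was 13602 to 15585 in LBT, 9316 to 17855 in PTCL and 2351 to 5798 in TZL, but also 15251 and 17750 in the BL dogs and 6714 to 16336 in DLBCL, where FBP1 was below the minimum. The part of cell division in the FBP1 values was not tested. In bulk tissue, fewer cells of a type and less RNA per cell cannot be told apart.

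**Figure D2:**
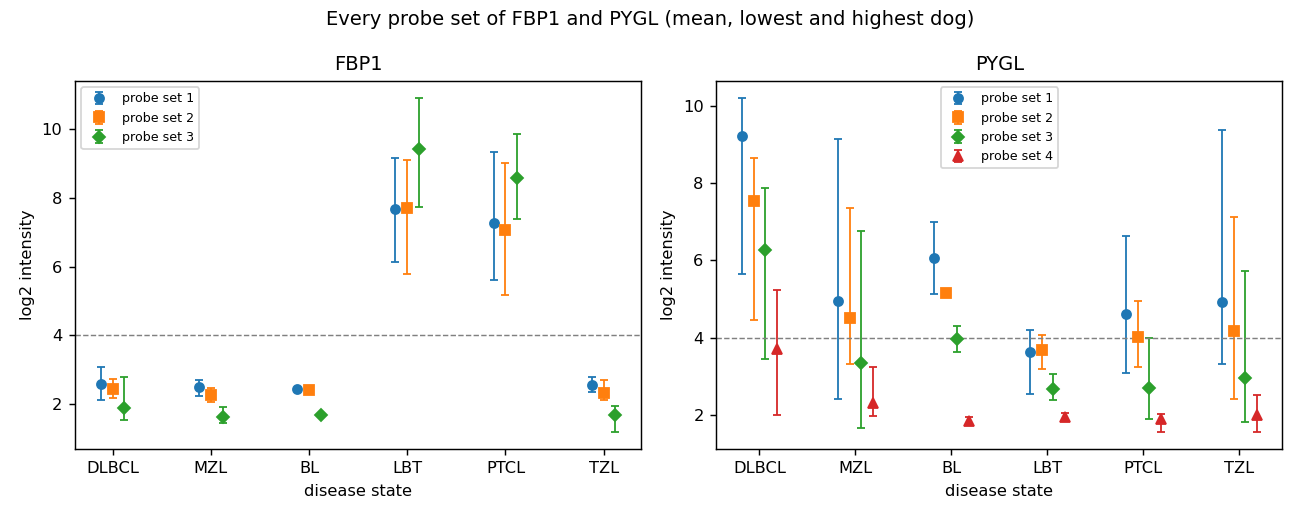
Mean log2 intensity of each probe set of FBP1 (3, left) and PYGL (4, right) by disease state, with bars from the lowest to the highest dog and the minimum of 4 dashed. All FBP1 probe sets lie at 5.17 or above in LBT and PTCL and at 3.09 or below elsewhere, and the probe sets of PYGL are highest in DLBCL with ranges that overlap those of other states.

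PYGL, which breaks down glycogen, followed another pattern and was high in DLBCL. Its log2 intensity ran from 5.64 to 10.23 in DLBCL with a median of 9.69, and the lowest dog, replicate 9, was the only one under 8.44. In MZL the dogs had 4.14, 3.73, 2.41, 5.32 and 9.16. Thus 4 of 5 MZL dogs lay below all DLBCL dogs, and replicate 5 lay inside the DLBCL range. The BL dogs had 5.13 and 7.01 and the NBNT dog 4.32. The LBT dogs had 4.04, 4.21, 2.53 and 3.70, the PTCL dogs 4.83, 3.90, 3.07 and 6.64, and TZL ran from 3.31 to 9.39 with a median of 4.85. TZL replicate 7, at 9.39, stood alone among the T dogs, the next highest being the PTCL dog of intermediate grade.

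The B-lineage grade step in PYGL was 4.29 (SE 0.89, 95% interval 2.48 to 6.10), with a limma adjusted p of 0.0566. In DLBCL against MZL 0% of genes were called and no adjusted p was lower. Several genes can share an adjusted p, so PYGL need not rank first. Without MZL replicate 5 the PYGL step was 5.34 (adjusted p = 0.00319), and without the 6 arrays that stood apart 4.62 (adjusted p = 0.00797). The T-lineage step was -0.30 (95% interval -2.29 to 1.68, adjusted p = 0.886). The difference of the steps, -4.59 (SE 1.32), did not pass either (adjusted p = 0.0635). B dogs exceeded T dogs by 3.07 (SE 0.72, adjusted p = 7.36e-04), and the test over the 6 disease states gave an adjusted p of 2.20e-05. PYGL is also known from neutrophils, and the summed intensity of 9 neutrophil markers was 42.9 to 3599 in DLBCL, 97.4 to 3607 in MZL and 74.3 to 4520 in TZL. It was 187 in DLBCL replicate 9, 156 in MZL replicate 5 and 1386 in TZL replicate 7. Of the 9 markers, only 5 passed the filter. The part of neutrophils in the PYGL values was not tested. The other 3 probe sets of PYGL gave B steps of 3.03, 2.95 and 1.40 with adjusted p of 0.0590, 0.0784 and 0.117 over all probe sets.

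Across the whole list, the members moved in both directions. In B against T, 15 of 32 members tested were called at an adjusted p under 0.05, 7 higher in B and 8 lower, beside 46.5% of all genes (24.2% higher and 22.3% lower). The members' share was 46.9% and so close to that of all genes, and their median difference was -0.0095 beside 0.03. In PTCL against TZL 9 members were called, 7 higher and 2 lower, or 28.1% beside 13.6% of all genes (7.58% higher and 6.07% lower), with a median of 0.15 beside 0.03. In LBT against TZL 15 were called, 10 higher and 5 lower, or 46.9% beside 30.1% (17.8% higher and 12.4% lower), with a median of 0.45 beside 0.05. These comparisons share the TZL dogs. In MZL against TZL 7 were called, 4 higher and 3 lower, or 21.9% beside 27.5% (15.2% higher and 12.3% lower).

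No member was called in DLBCL against MZL or in LBT against PTCL. In DLBCL against MZL 8 members had an unadjusted p under 0.05 in limma, as had 977 of all 7502 genes, and array weights called 4 members, PYGL, PDHA1, PFKFB3 and PGD. In LBT against PTCL 5 members had an unadjusted p under 0.05 in limma, as had 934 of all 7502 genes. By adjusted p, 0.680% of all genes were called there (0.467% higher and 0.213% lower). Groups did not overlap for 7 members in LBT against TZL (SLC2A3, PFKM, FBP1, PGK1, ENO1, PDHB and PGM1, beside 16.2% of all genes), for 3 in PTCL against TZL (SLC2A1, FBP1 and ALDOC, beside 6.88%), for 3 in MZL against TZL (PFKL, ALDOC and ENO1, beside 14.1%) and for 2 in LBT against PTCL (TPI1 and GAPDH, beside 4.52%). No member separated B from T or DLBCL from MZL, which 0.853% and 0.333% of all genes did. FBP1 was the only member called for the difference of the grade steps. Over the 6 disease states 23 members were called, beside 56.8% of all genes. ALDOA, GBE1, PFKFB3, PFKP, PKM, SLC16A1, SLC2A1 and TPI1 were called in no comparison with the settings described, although array weights called PFKFB3 as above.

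**Figure D3:**
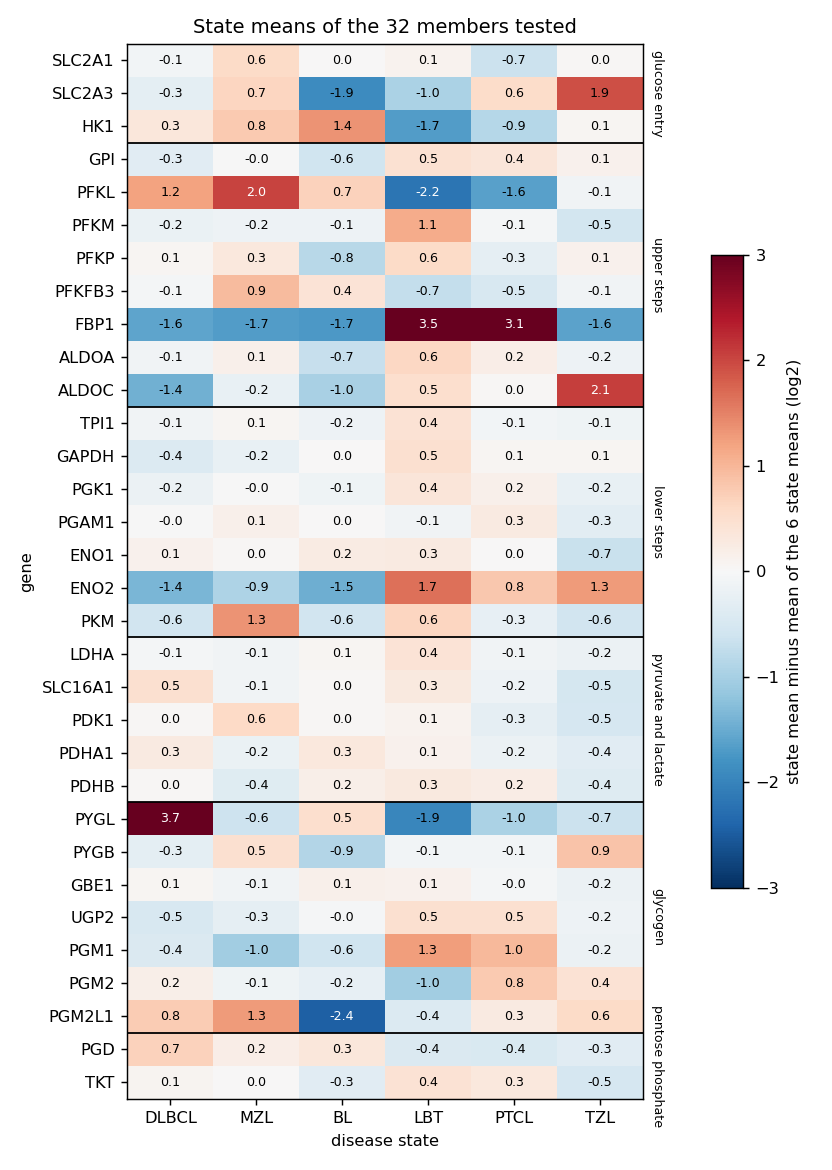
State means of the 32 members tested, as log2 differences from the mean of the 6 state means of each gene, with genes in rows grouped by role and disease states in columns; red is higher, blue lower, and colours stop at 3 in either direction. The widest ranges of state means are those of PYGL (5.62), FBP1 (5.24) and PFKL (4.22), and the narrowest is that of GBE1 (0.31).

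Among the genes of glucose entry, the neuronal-type transporter SLC2A3 and the first enzyme HK1 were lowest in LBT among the T states. SLC2A3 was at 5.58, 7.17, 7.40 and 6.94 in LBT against 8.55 to 11.34 in TZL (median 9.41), with no overlap. The difference was -2.90 (SE 0.63, adjusted p = 7.43e-04). In PTCL the dogs had 10.83, 6.64, 7.02 and 8.66 and spread over the ranges of both other states. B dogs ran from 5.61 to 9.80 (median 7.74) and T dogs from 5.58 to 11.34 (median 8.66), a difference of -1.14 that passed narrowly (adjusted p = 0.0484) and was lost in 21 of 34 fits with a single dog left out and with the 3' to 5' control differences as covariates (-0.57, adjusted p = 0.446).

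HK1 was at 4.70, 3.59, 2.89 and 4.82 in LBT and ran from 4.34 to 7.10 in TZL with a median of 5.72. LBT replicates 2 and 3 lay below every TZL dog and the other 2 overlapped them. The difference was -1.74 (SE 0.56, adjusted p = 0.0190), but on the next probe set of HK1 it was -0.28 (adjusted p = 0.713), and with sex, breed and age as covariates -1.47 (adjusted p = 0.0855). It was also lost without LBT replicate 2 or 3. B dogs were higher than T dogs in HK1 by 1.16 (SE 0.36, adjusted p = 0.00846), with B dogs from 4.42 to 8.24 (median 6.20) and T dogs from 2.89 to 7.10 (median 4.95), which overlapped. The ubiquitous transporter SLC2A1 was not called. It was 5.82, 5.73, 5.83 and 5.62 in PTCL and 5.83 to 7.01 in TZL, without overlap by a narrow margin, and the difference was -0.70 (adjusted p = 0.181).

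At the phosphofructokinase step the isoforms differed in pattern. The liver-type PFKL was high in B dogs, from 8.60 to 10.92 (median 9.81), and ran from 4.50 to 8.88 in T dogs (median 8.05). The ranges overlapped, with TZL replicates 1, 3 and 7 and PTCL replicate 4 reaching the lowest B dogs. The difference of 2.34 (SE 0.37, adjusted p = 4.23e-06) is 5.07-fold. Between the low-grade states MZL, at 10.17, 10.25, 10.92, 10.30 and 10.14, exceeded TZL, at 7.15 to 8.88 (median 8.28), without overlap, and the difference was 2.14 (SE 0.48, adjusted p = 0.00124).

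Within the T lineage PFKL fell. LBT had 4.50, 6.47, 8.09 and 5.50, so that 3 of 4 dogs lay below all TZL dogs, and the difference was -2.08 (SE 0.52, adjusted p = 0.00276). PTCL had 7.26, 4.74, 6.05 and 8.73, with replicates 2 and 3 below all TZL dogs and the others among them, and the difference was -1.52 (adjusted p = 0.0462). The PTCL call was lost in 16 of 34 fits with a single dog left out, with -1.31 (adjusted p = 0.155) without PTCL replicate 3, and on other probe sets of PFKL, which gave -0.36 and -0.69.

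The muscle-type PFKM moved the other way in LBT. It was at 4.93, 4.93, 4.14 and 6.63 in LBT and at 3.03 to 3.95 in TZL (median 3.49), all below the minimum, without overlap. The difference of 1.65 (SE 0.35, adjusted p = 6.41e-04) is therefore given as at least 2.23-fold. Elsewhere PFKM lay between 3.28 and 5.55 in DLBCL, 3.60 and 4.22 in MZL and 3.37 and 5.04 in PTCL. The platelet-type PFKP and PFKFB3, whose product makes the main activator of phosphofructokinase, were not called with the settings described, and PFKP ran from 6.49 to 8.98 over all tested dogs. GPI, which interconverts the hexose phosphates before this step, was lower in B than in T, with a difference of -0.53 (adjusted p = 0.00399).

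**Figure D4:**
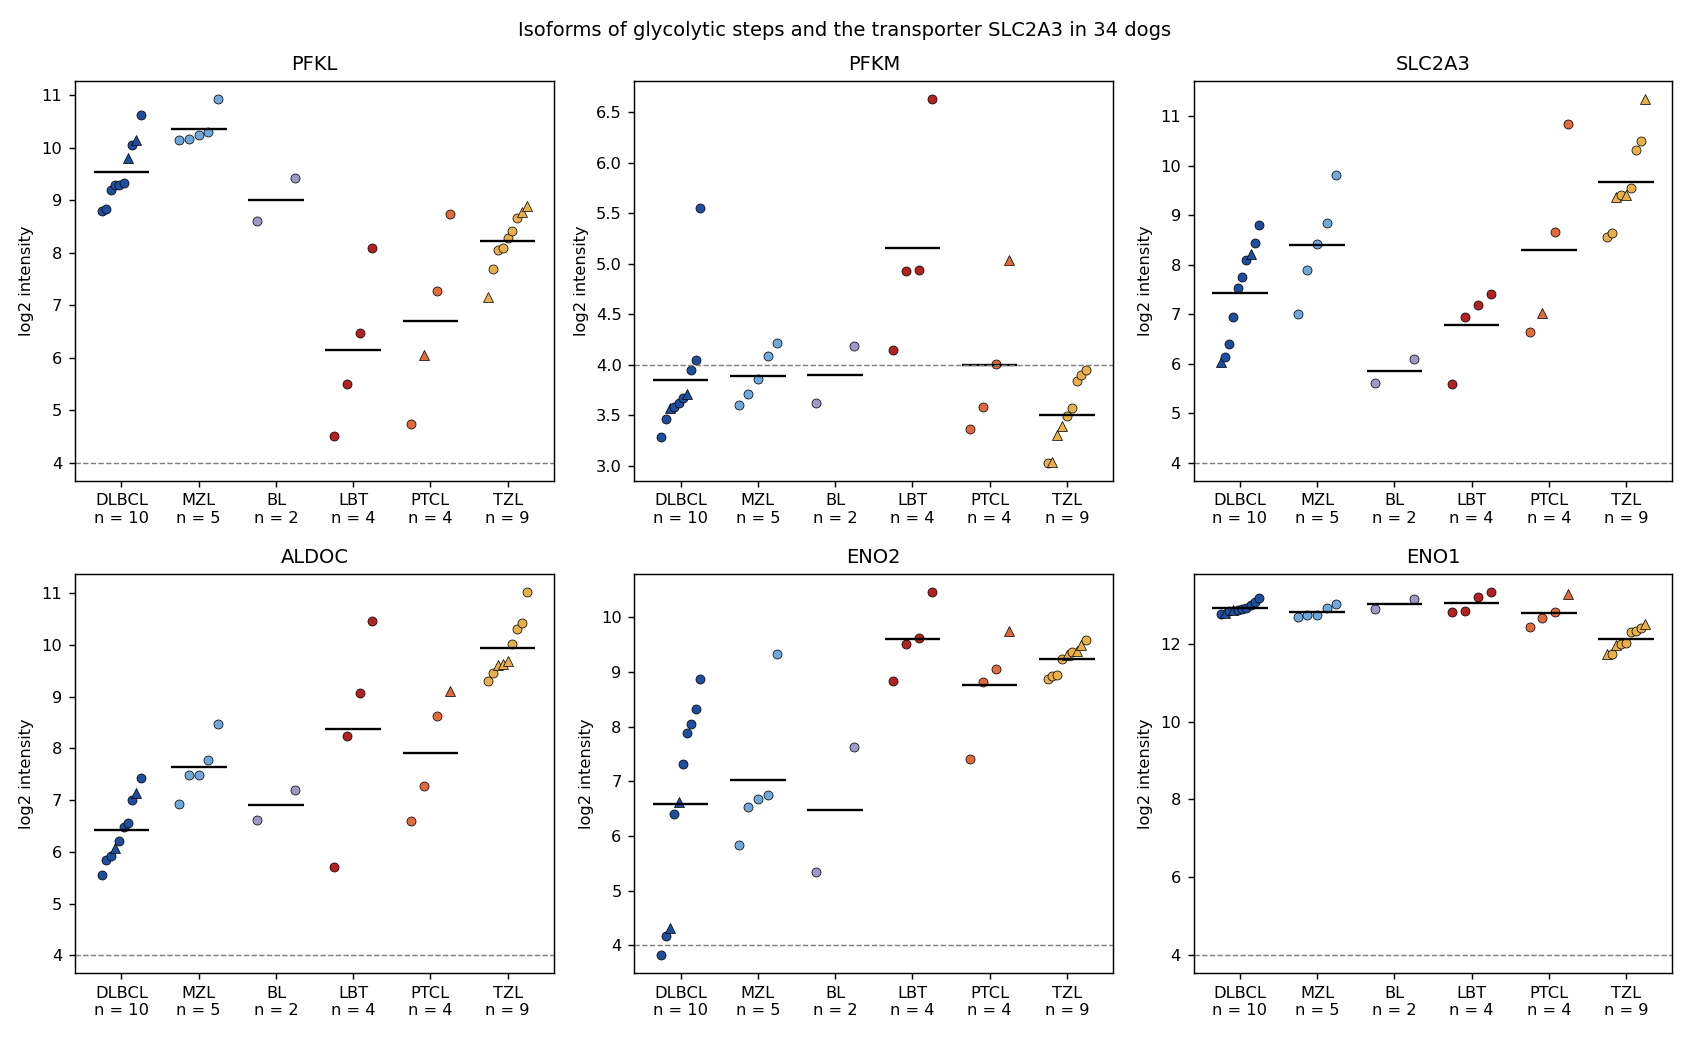
Log2 intensity of PFKL, PFKM, SLC2A3, ALDOC, ENO2 and ENO1 in each of 34 dogs by disease state; points are dogs, triangles mark the arrays with the high actin control, bars are group means, the dashed line is the minimum of 4, and each panel has its own vertical scale. PFKL is highest in MZL (10.14 to 10.92), PFKM rises above the TZL range in LBT, and TZL is high for ALDOC (9.29 to 11.02) and low for ENO1 (11.73 to 12.52).

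The aldolase isoform ALDOC, first known from brain, was highest in TZL. TZL dogs ran from 9.29 to 11.02 with a median of 9.70, against 7.49, 6.92, 8.48, 7.77 and 7.49 in MZL and 7.27, 6.60, 9.11 and 8.62 in PTCL. Neither group overlapped TZL, and the differences were -2.31 (SE 0.49, adjusted p = 7.68e-04) for MZL and -2.04 (SE 0.53, adjusted p = 0.00902) for PTCL, the latter not called without PTCL replicate 2 (-1.61). LBT was mixed, at 5.70, 8.24, 9.08 and 10.46, with the last inside the TZL range, and its difference of -1.57 (adjusted p = 0.0241) was lost without replicate 1 or without replicate 2. B dogs ran from 5.55 to 8.48 (median 6.92) and T dogs from 5.70 to 11.02 (median 9.45), a difference of -2.26 (SE 0.38, adjusted p = 1.19e-05) in which only 4 T dogs, all LBT or PTCL, reached down into the B range. The general isoform ALDOA was not called, at 9.09 to 11.55 over all tested dogs.

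Among the lower steps, both enolase genes differed between states. ENO1 encodes the enolase of most tissues. TZL dogs ran from 11.73 to 12.52 (median 12.01). PTCL had 12.43, 12.81, 13.27 and 12.66, of which the first lay inside the TZL range, LBT had 12.80, 13.19, 12.84 and 13.33, and MZL had 12.67, 12.73, 12.91, 12.74 and 13.03, and neither of these overlapped TZL. ENO1 was higher than in TZL by 0.68 in PTCL (SE 0.16, adjusted p = 0.00405), by 0.93 in LBT (SE 0.16, adjusted p = 5.33e-05) and by 0.71 in MZL (SE 0.15, adjusted p = 6.66e-04). Its excess in B over T was 0.41 (adjusted p = 0.0122). The PTCL call was lost without the 6 arrays that stood apart (0.50, adjusted p = 0.0665), and the B call with the 3' to 5' covariates (0.36, adjusted p = 0.0785).

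ENO2, the enolase first known from neurons, differed by lineage and not detectably by grade. T dogs ran from 7.40 to 10.46 (median 9.32) and B dogs from 3.82 to 9.32 (median 6.68), a difference of -2.51 (SE 0.41, adjusted p = 6.07e-06) with overlap. MZL had 5.84, 9.32, 6.53, 6.76 and 6.68, of which replicate 2 lay inside the TZL range of 8.87 to 9.58 (median 9.32), and MZL was lower, with a difference of -2.21 (SE 0.68, adjusted p = 0.0157). That call was lost without MZL replicate 1 (-1.91, adjusted p = 0.0605). Replicate 2 is a dog whose sex probe set opposed its label, and without it the difference was -2.78 (adjusted p = 0.00417).

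Of the other lower-step genes, PGK1, which makes the first energy-yielding phosphate transfer, was higher than in TZL by 0.38 in PTCL (adjusted p = 0.0345, lost without PTCL replicate 2 or 4 or TZL replicate 5 or 6) and by 0.59 in LBT (adjusted p = 3.84e-04). The mutase PGAM1 was higher than in TZL by 0.59 in PTCL (adjusted p = 0.0145) and by 0.46 in MZL (adjusted p = 0.0226). Without PTCL replicate 3 the PTCL difference in PGAM1 was 0.44 (adjusted p = 0.108), and without MZL replicate 4 the MZL difference was 0.41 (adjusted p = 0.0698). GAPDH was lower in B than in T by a difference of -0.46 (adjusted p = 0.00191), as read by the array's 3' control probe set for GAPDH, the brightest one annotated to it. The 3' minus 5' difference of the GAPDH controls, a sign of RNA quality, averaged 3.43 in DLBCL and 2.78 in TZL, and with such differences as covariates the GAPDH value was -0.35 (adjusted p = 0.0318). The GAPDH covariate contains the same 3' probe set, so this fit cannot tell RNA quality apart from the GAPDH level. The isomerase TPI1 and the pyruvate kinase gene PKM were not called. PKM was widely spread, from 1.68 to 7.05, and had 1 of the larger uncalled grade steps in the B lineage, -1.93 (adjusted p = 0.231).

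**Figure D5:**
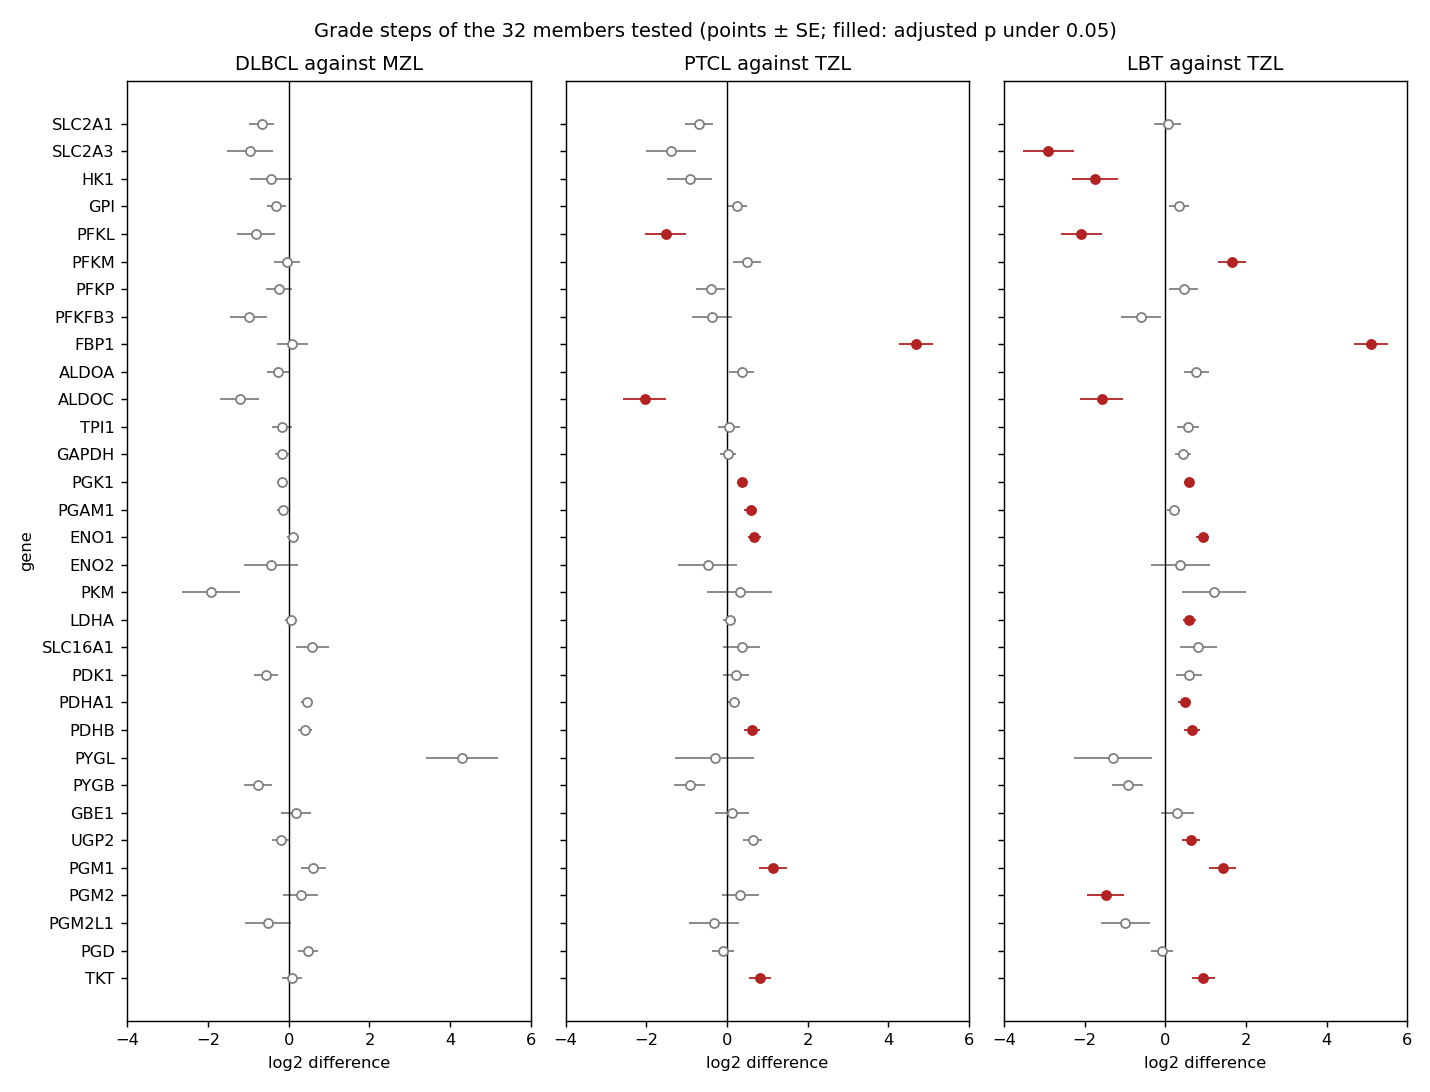
Log2 differences of the 32 members tested in DLBCL against MZL, PTCL against TZL and LBT against TZL; points are differences with bars of 1 SE, and filled red points have an adjusted p under 0.05. None is filled in the B-lineage step, 9 are in PTCL against TZL and 15 in LBT against TZL, with FBP1 farthest right in both T-lineage panels.

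At the fate of pyruvate, the changes were small and mostly upward in the high-grade T states. LDHA, which forms lactate, was 0.60 higher in LBT than in TZL (adjusted p = 0.00539), while its difference in PTCL was 0.07. The pyruvate dehydrogenase subunit PDHB was higher than in TZL by 0.61 in PTCL (adjusted p = 0.0363) and by 0.67 in LBT (adjusted p = 0.00993). The PTCL call of PDHB was lost in 6 of 34 fits with a dog left out, with 0.41 (adjusted p = 0.25) without PTCL replicate 2 and 0.65 (adjusted p = 0.0617) without replicate 3, and the LBT call was lost without LBT replicate 3 (0.51, adjusted p = 0.0766). PDHA1, the partner subunit, was 0.49 higher in LBT than in TZL (adjusted p = 0.0219, lost without LBT replicate 1 or 3) and 0.33 higher in B than in T (adjusted p = 0.0159).

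PDK1, the kinase that switches this enzyme complex off, was at 11.31, 10.42, 11.20, 11.20 and 10.90 in MZL and ran from 9.46 to 10.57 in TZL (median 10.00). All MZL dogs but replicate 2 lay above the TZL range, and the difference was 1.10 (SE 0.30, adjusted p = 0.00587). The excess of B over T was 0.51 (adjusted p = 0.0294), and without the 6 arrays that stood apart 0.42 (adjusted p = 0.132). The lactate transporter SLC16A1 was close to the minimum, below it in all 9 TZL dogs, and was not called.

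Among the other glycogen genes, PGM1, which links glucose 1-phosphate to glucose 6-phosphate, was highest in the high-grade T states. LBT had 8.11, 7.93, 7.59 and 8.62 and PTCL 7.53, 8.42, 8.60 and 6.54, against 6.09 to 7.06 in TZL (median 6.63). No LBT dog and only PTCL replicate 4 fell into the TZL range. The differences were 1.42 (SE 0.34, adjusted p = 0.00206) and 1.13 (SE 0.34, adjusted p = 0.0244), and the latter was lost without the 6 arrays that stood apart (0.90, adjusted p = 0.194), without PTCL replicate 3 (0.86, adjusted p = 0.143) and without replicate 2 (0.92, adjusted p = 0.139). MZL had 5.30, 5.26, 6.25, 5.44 and 6.60, 3 of 5 below all TZL dogs, and was lower than TZL, with a difference of -0.87 (adjusted p = 0.0404). This call was lost in 9 of 34 fits with a dog left out, with -0.74 (adjusted p = 0.119) without MZL replicate 2. In B against T the difference in PGM1 was -1.06 (adjusted p = 8.02e-04).

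UGP2, which makes the activated glucose for glycogen, was 0.64 higher in LBT than in TZL (adjusted p = 0.0347) and lower in B than in T, at -0.51 (adjusted p = 0.00640). The LBT call of UGP2 was lost in 5 of 34 fits with a dog left out, with 0.50 (adjusted p = 0.148) without LBT replicate 3. PGM2, a mutase of pentose and hexose phosphates, was lower in LBT than in TZL, at -1.48 (adjusted p = 0.0162), and the call was lost without LBT replicate 2 (-1.12) or 3 (-1.26). The brain-type phosphorylase PYGB and PGM2L1, which makes glucose 1,6-bisphosphate, were called only over the 6 disease states (adjusted p = 0.00761 and 0.00753). The branching enzyme GBE1 was not called.

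In the pentose phosphate branch, PGD, the second oxidative enzyme, was 0.90 higher in B than in T (SE 0.16, adjusted p = 1.80e-05), with no call within the T lineage. TKT, the transketolase of the non-oxidative part, was 10.62, 11.19, 11.76 and 11.09 in PTCL and 9.67 to 10.84 in TZL (median 10.43). PTCL replicate 1 overlapped TZL and the other 3 did not, and the difference was 0.82 (SE 0.28, adjusted p = 0.0498), lost in 23 of 34 fits with a single dog left out, with 0.62 (adjusted p = 0.208) without PTCL replicate 3. LBT exceeded TZL by 0.95 (adjusted p = 0.0112), lost without LBT replicate 2 (0.80, adjusted p = 0.0553).

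The PTCL against TZL calls depended most on single dogs. The count of 9 fell to 3 without PTCL replicate 2, namely FBP1, ENO1 and PGAM1, and to 5 without replicate 3. It fell to 3 without the 6 arrays that stood apart, namely FBP1, ALDOC and PGK1, and to 4 when the 2 dogs at odds with their labelled sex were left out, namely FBP1, ENO1, ALDOC and PGK1.

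A wider list of 67 other genes of glucose transport, glycogen, gluconeogenesis and pyruvate handling had 61 with a probe set and 27 tested. In PTCL against TZL 4 rose and 0 fell, or 14.8%, close to the 13.6% of all genes. These were the urate and glucose transporter SLC2A9 (3.06, adjusted p = 4.04e-04), the glucose 6-phosphate transporter SLC37A4 (1.44, adjusted p = 5.29e-04), the intracellular sugar transporter SLC2A8 (1.25, adjusted p = 0.00304) and PDHX (0.66, adjusted p = 0.0302), a subunit of pyruvate dehydrogenase. All TZL dogs were below the minimum for SLC2A9, SLC37A4 and SLC2A8, so the folds are bounds, at least 2.81-fold, 1.59-fold and 1.60-fold in PTCL. SLC2A8 reached the minimum in 6 dogs, all LBT or PTCL, and so had to differ between them and the rest. SLC37A4 reached it in 8 dogs, 7 of them LBT or PTCL, and SLC2A9 in 5 dogs, 4 of them LBT or PTCL. These genes passed the filter through those states, so their tests give the size of the difference and are not counted as support. SLC2A9 was between 2.54 and 7.58 in PTCL and at 2.93 or below in TZL. In LBT against TZL 10 rose and 1 fell, or 40.7% beside 30.1% of all genes, led by SLC37A4 (2.27, adjusted p = 3.69e-07), SLC2A8 (1.60, adjusted p = 7.66e-05), GYG1, the primer of glycogen (1.71, adjusted p = 1.05e-04), and the mitochondrial pyruvate carrier MPC1 (0.87, adjusted p = 5.48e-04), and the gene that fell was STBD1, which binds glycogen (-1.77, adjusted p = 0.0479). As bounds, SLC37A4 was at least 2.82-fold and SLC2A8 at least 2.04-fold higher, and STBD1, below the minimum in every LBT dog, at least 1.16-fold lower. SLC37A4, which feeds the last step of gluconeogenesis, was at 5.22 to 5.81 in LBT, 3.93 to 5.36 in PTCL and 2.46 to 3.84 in TZL, and at 4.03 or below in DLBCL, MZL and BL. Of other listed genes of gluconeogenesis, PCK1, G6PC1 and G6PC2 were below the minimum in all 17 T and all 17 B dogs. PC was below it in 17 T and 15 B dogs. PCK2 reached the minimum in 12 T and 15 B dogs, and G6PC3 in all 17 of each. SLC37A4 and SLC2A9 were also called for the difference of the grade steps, measured against TZL values below the minimum, at 1.45 (adjusted p = 0.0302) and 3.30 (adjusted p = 0.0197). As both passed the filter through LBT and PTCL, these calls are not counted as support either.

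In B against T 11 of the 27 rose and 5 fell, or 59.3% beside 46.5% of all genes, led by the pyruvate dehydrogenase kinase PDK3 (1.81, adjusted p = 7.58e-06), MPC1 (0.77, adjusted p = 3.10e-05), the phosphorylase kinase subunit PHKB (0.98, adjusted p = 4.52e-05) and the muscle enolase ENO3 (1.17, adjusted p = 1.08e-04). In MZL against TZL 6 rose and 0 fell, or 22.2% beside 27.5% of all genes, led by ENO3 (1.91, adjusted p = 3.14e-05), PDK3 (2.40, adjusted p = 9.68e-05), MPC1 (0.81, adjusted p = 6.46e-04) and the muscle phosphorylase PYGM (2.04, adjusted p = 0.00194), which was below the minimum in every TZL dog and so at least 1.83-fold higher. PYGM reached the minimum in 7 dogs, all of the B phenotype, and passed the filter through them. Its test gives the size of the difference and is not counted as support. In DLBCL against MZL and in LBT against PTCL 0 were called, with 5 and 6 at an unadjusted p under 0.05 in limma.

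Of 30 regulators and hypoxia-response genes, 17 were tested. In PTCL against TZL 0 were called, with 2 of the 17 at an unadjusted p under 0.05 in limma, beside 27.0% of all genes. In LBT against TZL 2 rose and 4 fell, or 35.3% beside 30.1% of all genes, led by MXI1, a MYC antagonist (-1.71, adjusted p = 0.00345, at least 1.03-fold lower because every LBT dog was below the minimum), the mitophagy receptor BNIP3L (1.16, adjusted p = 0.00355), TXNIP, which restrains glucose uptake (-0.93, adjusted p = 0.0111), and ANKRD37 (-0.96, adjusted p = 0.0295). In B against T 4 rose and 6 fell, or 58.8% beside 46.5% of all genes, led by MXI1 (2.32, adjusted p = 9.36e-08), TXNIP (-0.86, adjusted p = 5.91e-04), MYC (1.21, adjusted p = 7.98e-04) and ANKRD37 (0.95, adjusted p = 0.00106). In MZL against TZL 3 rose and 1 fell, or 23.5% beside 27.5% of all genes, namely MXI1 (2.16, adjusted p = 1.87e-04), ANKRD37 (1.32, adjusted p = 0.00195), BNIP3L (1.03, adjusted p = 0.00558) and ERO1A, an oxidase of protein folding (-0.92, adjusted p = 0.00833). MXI1 was below the minimum in 11 of 17 T dogs, and in TZL in 5 of 9. Its differences against T and against TZL thus rest partly on dim values. BNIP3L alone was called for the difference of the grade steps (1.97, adjusted p = 0.00718).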

How the data were processed

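RNA extracted from dispersed tumours was labelled from 2.5 ug and hybridized to Affymetrix arrays, per the labels' protocols. The deposited values are GCRMA intensities made by the authors on a linear scale, with 43035 probe sets on 36 arrays (GCRMA version not given in the sources used here). Values were floored at 1 and log2 transformed, and 2 arrays of a case were averaged. Median intensities were 5.57 to 6.13, and 32.2% to 35.5% of the probe sets of an array had a log2 of 4 or above. GCRMA compresses dim values, so folds near the minimum are bounds.

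Genes were named by the platform annotation, which gave 29264 probe sets 1 symbol, 439 several and 13332 none; 27690 of the first were found in the RefSeq table and 0 were renamed. The probe set with the highest mean stood for a gene, and 10 array control probe sets annotated to a gene were kept. The test on log2 values was limma 3.58.1 in R 4.3.3 (lmFit and eBayes, Benjamini-Hochberg over all genes tested), with the 6 disease states in one model and B against T in another. Genes needed a log2 of 4 (intensity 16) in at least 4 of 34 dogs, which left 7502, and were called at an adjusted p under 0.05. A fold called "at least" sets the dim group at the minimum. On simulated data with 7502 genes, a change of 2 on the log2 scale was recovered for 97% of changed genes in B against T, 82% in DLBCL against MZL, 78% in PTCL against TZL and 69% in LBT against TZL. A change of 1 was recovered for 78%, 48%, 38% and 37% of them. For changes of 2 and 1, recovery was 62% and 33% in LBT against PTCL and 83% and 49% in MZL against TZL. For the difference of steps it was 56% and 15%. Only 100 genes were changed at each size, fewer than were called in B against T.

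The members, lists and tests were chosen with earlier results of these data known. Per-dog values are given for FBP1, PYGL and up to 6 called members with the largest difference per comparison, and up to 4 genes of the smallest p in each other list. Alternatives covered the filter, floor, normalization, array weights, probe sets, covariates, the array set and left-out dogs. The 3' to 5' covariates, equal weights per state and the removal of the dogs of opposed sex probe set were chosen after seeing the data.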

Additional observations from a re-analysis of the deposited data

Results flagged for a closer look

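Single dogs stood apart from the rest of their group for 11 of 160 sets of values examined, and chance flags about 1 in 20. For PYGL, DLBCL replicate 9 was lowest at 5.64, next to 8.44, and TZL replicate 7 was highest at 9.39, next to 5.23. Both arrays belong to the set with the high actin control, as does TZL replicate 1, which was lowest for PDHB at 8.93, next to 9.50. The part of that set in these values was not tested.

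MZL replicate 2, whose sex probe set opposed its label, was highest for ENO2 at 9.32, next to 6.76, and lowest for UGP2 at 8.68, next to 9.24. In MZL, replicate 3 was highest for PFKL at 10.92 and replicate 4 highest for GBE1 at 5.39. In DLBCL, replicate 3 was highest for PFKM at 5.55 and replicate 6 lowest for TPI1 at 9.18. In LBT, replicate 2 was highest for GAPDH at 13.88 and replicate 4 lowest for LDHA at 12.02.

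The grade step of FBP1 differed between lineages by 4.60 (SE 0.57, limma adjusted p = 1.22e-05), since all 4 PTCL dogs lay above all TZL dogs while DLBCL and MZL overlapped. Because FBP1 entered the tests only through the LBT and PTCL dogs, this gives the size of the difference and is not counted as support.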

How the results depend on the processing

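The FBP1 steps in PTCL and between lineages stayed called under every alternative run. FBP1 reached the minimum in LBT and PTCL dogs only, so these calls are not counted as support. No named member call reversed: 676 kept their call and 88 lost it under other settings, as did 51 and 20 on other probe sets and 1430 and 100 with a dog left out.

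In DLBCL against MZL the count of members called rose from 0 to 1, PYGL, with a minimum of log2 6, with values set to 4, with median centring, with the mean of probe sets, with one array of the repeated case and without the array set, and to 4 with array weights. PYGL in that step was then 4.29, 3.91, 4.39, 2.92, 4.28 and 4.62, and 3.07 with array weights. The PYGL difference of steps passed with quantile normalization (-4.72), with median centring (-4.71) and without the intermediate-grade dog (-5.27).

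In PTCL against TZL the count of 9 was 5 with array weights, 3 without the array set, 5 with only the groups compared and 4 with both dogs at odds with their labelled sex left out. In MZL against TZL it was 11 with array weights. For the difference of steps it was 2 without a filter, with quantile normalization, with median centring, with array weights, in Golden Retrievers and with the array set as a block, and 3 with a trended robust fit and without the intermediate-grade dog.

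FBP1 in DLBCL against MZL turned to -0.0722 with sex, breed and age as covariates and to -0.0184 with the array set as a block. PYGL in PTCL against TZL turned to 0.0812 with array weights, 0.0225 with the covariates, 0.85 without the array set, and 0.21 with both of those dogs left out; without PTCL replicate 3 it was 0.21 and without TZL replicate 7 0.26. The cause was not tested.

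With single dogs left out, the counts were 14 to 16 in B against T, 0 to 2 in DLBCL against MZL, 3 to 11 in PTCL against TZL, 11 to 16 in LBT against TZL, 0 to 1 in LBT against PTCL, 6 to 8 in MZL against TZL, 1 to 3 for the difference of steps and 19 to 24 over the 6 states. FBP1 ranged from 0.02 to 0.14 in DLBCL against MZL, from 4.00 to 5.23 in PTCL against TZL and from 3.91 to 5.15 for the difference of steps. PYGL ranged from 3.65 to 5.34, from -0.98 to 0.26 and from -5.64 to -3.95.

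No paired analysis was possible because the labels give each dog as its own case with a single disease state. Values below a log2 of 4 carry little signal over background, which limits FBP1 outside LBT and PTCL. Groups of 4 and 5 dogs limit the rest.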

Other observations

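FBP1 was 1 of 14 genes whose values separated the 8 LBT and PTCL dogs from all other 26 tested dogs. These genes were picked by that separation, so their values are a description. Higher in LBT and PTCL, by the difference of means on the log2 scale, were DPP4 (7.06), a cell-surface peptidase of T cells, SNAP91 (5.54), FBP1 (4.92), TOX (4.81), a nuclear factor of T-cell development, APP (4.45), UCHL1 (4.34), RGS10 (3.85), ZCCHC12 (3.68), GPSM2 (2.53), HBS1L (1.23), GTF3C6 (1.19) and PJA2 (0.87). BOLA3 (-0.75) and GNB5 (-1.91) were lower.

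FBP2, the muscle paralog that lies next to FBP1 in RefSeq's gene order, reached the minimum in 3 dogs only, all LBT or PTCL. It was at 4.96, 2.49, 5.31 and 2.47 in LBT, at 2.63, 2.37, 7.60 and 3.78 in PTCL and at 2.99 or below in every other dog. C1H9orf3, the gene on the other side of FBP1, differed by -0.16 in PTCL and by 0.28 in LBT against TZL, and neither was called (limma adjusted p = 0.856 and 0.654). SAV1, near PYGL, was lower than in TZL in PTCL, at -1.48 (adjusted p = 0.0489), and in LBT, at -1.93 (adjusted p = 0.00448).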
